A study of Mus musculus with 4 samples.

Results

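The genes of MHC class II antigen presentation were examined in RNA-Seq of neutrophils from the injured heart. The 7 genes, chosen by name, were *H2-Aa*, *H2-Ab1*, *H2-Eb1*, *Cd74*, *H2-DMa*, *H2-DMb1* and *Ciita*, of 25655 genes in the files, and all 7 were found by symbol. Neutrophils had been sorted as CD45.2+CD11b+Ly6G+ cells and divided by SiglecF into SiglecF hi and SiglecF lo neutrophils, named SiglecF-positive and SiglecF-negative in the labels. They came from WT C57BL/6J mice and from *Cd300a-/-* mice on the C57BL/6 background, which lack the inhibitory receptor CD300a. The methods give male mice of 8 to 12 weeks for this injury, in which the left anterior descending artery was closed for 60 minutes and then reopened (MI/R), and cells were taken on day 3. Each of the 4 groups is 1 library from the pooled hearts of 8 mice. Without replicates no difference can be set against a spread between samples, and every statement below is about these libraries. Depth, as the total count on genes, was 19278243 for WT SiglecF hi, 17632989 for *Cd300a-/-* SiglecF hi, 9631901 for WT SiglecF lo and 10988619 for *Cd300a-/-* SiglecF lo. Where 4 values follow each other below, they are in this order of libraries. Intervals are 95% intervals for counting error alone.

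MHC class II molecules show peptides from endosomes to CD4 T cells. Each is a pair of an alpha and a beta chain, and in mice *H2-Aa* and *H2-Ab1* encode the pair I-A, while *H2-Ea* and *H2-Eb1* encode the pair I-E. *Cd74* encodes the invariant chain, which fills the groove of new class II molecules and is cut down to the fragment CLIP. *H2-DMa* and *H2-DMb1* encode chains of H2-M, which exchanges CLIP for antigenic peptide. CIITA is the transactivator of these genes and works through RFX, CREB and NF-Y proteins bound to their promoters. Interferon-gamma induces *Ciita* in many cell types. Dendritic cells, B cells and activated macrophages are known for high class II expression, and neutrophils for little of it at rest.

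The labels were first checked against their own genes, in TPM, a level per gene length whose total is equal for all libraries. *Cd300a* measured 163, 0.740, 127 and 1.06 TPM, and *Siglecf* 354, 405, 11.3 and 15.3 TPM. Both genes thus followed the labels. *Ly6g*, the gene of the sorting marker, measured 11.1, 41.9, 330.4 and 889 TPM and was low in SiglecF hi neutrophils. The gene said to lead a list here and below is its most abundant by mean TPM of the 4 libraries, and not always in each of them. The 8 neutrophil markers, led by *S100a9*, summed to 27503, 32526, 154960 and 204322 TPM, with none at 0 counts. Markers of macrophages were also abundant in every library. The 14 macrophage markers summed to 8729, 7647, 3599 and 3314 TPM, with none at 0 counts, and *C1qb*, a chain of complement C1q, which leads them, measured 2257, 2036, 839 and 754 TPM. The SiglecF hi libraries were thus the higher pair for macrophage markers and the lower pair for neutrophil markers. The part of other cells in the class II values was not tested. In bulk RNA, fewer cells of a type and less RNA per cell cannot be told apart.

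The invariant chain gene was the most abundant of the 7 genes. *Cd74* (ENSMUSG00000024610), on chromosome 18 from 60936920 to 60945724 (GRCm39, the build in the submitters' processing notes), measured 1170.0, 1235, 1279.6 and 1353 TPM from 14538, 13734, 9310 and 10863 counts. By TPM it ranked 131, 116, 107 and 96 among all genes of these libraries. Both SiglecF lo libraries lay above both SiglecF hi libraries.

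The classical chain genes followed, in the order *H2-Aa*, *H2-Ab1* and *H2-Eb1* in each of the 4 libraries. *H2-Aa* (ENSMUSG00000036594), the I-A alpha chain gene on the minus strand of chromosome 17 from 34501718 to 34506797, measured 520.5, 532, 627 and 639.8 TPM from 5152, 4710, 3635 and 4091 counts. *H2-Ab1* (ENSMUSG00000073421), the I-A beta chain gene on the plus strand from 34476663 to 34488393, measured 421, 422, 460.4 and 511 TPM from 4478, 4022, 2867 and 3512 counts. *H2-Eb1* (ENSMUSG00000060586), the I-E beta chain gene on the plus strand from 34524841 to 34535648, measured 292, 291, 316 and 353 TPM from 4596, 4105, 2916 and 3598 counts. For these genes too, the SiglecF lo libraries were the higher pair.

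The peptide editor genes were expressed at lower levels and had another order of libraries. *H2-DMa* (ENSMUSG00000037649), on chromosome 17 from 34338515 to 34358075, measured 39.6, 32.1, 45.7 and 26.3 TPM from 928, 673, 626 and 397 counts. *H2-DMb1* (ENSMUSG00000079547), from 34372046 to 34379204, measured 65.4, 57.9, 64.6 and 32.7 TPM from 806, 638, 466 and 260 counts. Both had their lowest TPM in *Cd300a-/-* SiglecF lo neutrophils, though relative to the median gene *H2-DMa* was lower in *Cd300a-/-* SiglecF hi neutrophils, as given below. The transactivator gene had few counts. *Ciita* (ENSMUSG00000022504), on chromosome 16 from 10297923 to 10346282, measured 1.81, 1.36, 1.13 and 1.71 TPM. These levels rest on 131 counts (interval 109.5 to 155), 88 counts (70.6 to 108), 48 counts (35.4 to 63.6) and 80 counts (63.4 to 99.6). The limit of 10 TPM named in the methods, taken here on the mean of the 4 libraries, left 6523 genes, and 6 of the 7 genes passed it, all but *Ciita*. Summed, the 7 genes reached 2510.0, 2571, 2795 and 2918 TPM.

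**Figure D1:**
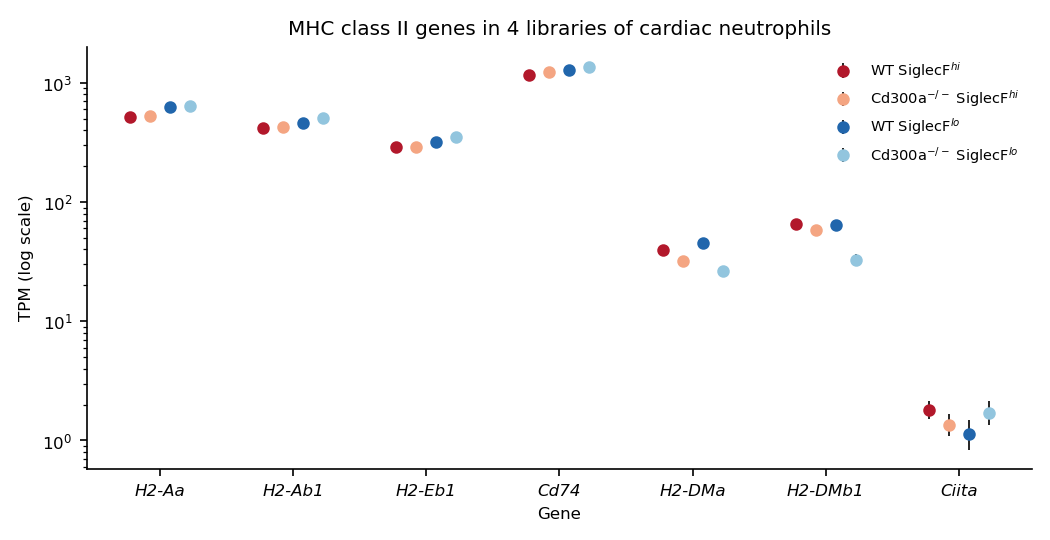
TPM on a log scale (vertical axis) of the 7 MHC class II genes (horizontal axis), with 1 point per library and bars for the 95% counting interval, often smaller than the point. *Cd74* lay between 1170.0 and 1353 TPM and *Ciita* between 1.13 and 1.81 TPM, and *H2-DMb1* was at 32.7 TPM in *Cd300a-/-* SiglecF lo against 57.9 to 65.4 TPM in the other libraries.

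Between the subsets of WT mice, *Cd74* and the classical chain genes were slightly lower in SiglecF hi neutrophils, while most genes were higher there. Differences are given as log2((TPM + 1) ratio), a scale that shrinks the differences of low genes, and genes beyond 0.5 in either direction were counted. The median over the 6523 genes was 0.53, and each ratio is therefore also given after subtracting it (centred). *H2-Aa* had a subset ratio, SiglecF hi over SiglecF lo, of -0.27 (interval -0.33 to -0.21), or -0.79 centred. *H2-Ab1*, *H2-Eb1* and *Cd74* had -0.13, -0.12 and -0.13, or -0.66, -0.64 and -0.66 centred. These genes were lower on either scale. *H2-DMa* was at -0.20 (interval -0.34 to -0.06), or -0.73 centred. For *H2-DMb1* the ratio of 0.02 (interval -0.14 to 0.18) was within counting error, but centred it was -0.51. *Ciita* was at 0.40 (interval 0.13 to 0.67) and changed sign to -0.13 when centred, though not under TMM scaling, another correction for composition, where it was 0.12, and it was 0.63 with a pseudocount of 0.1. The median of the 7 genes was -0.13. But for *Ciita* with that pseudocount, none of the 7 genes was past 0.5 before centring, while 51.9% of the genes tested were higher and 7.47% lower. After centring, 6 of the 7 were lower and none higher past 0.5, against 20.9% lower and 19.3% higher among the genes tested. Whether these genes counted as lower in SiglecF hi neutrophils thus depended on the scale.

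The same chain genes were the lower ones in SiglecF hi neutrophils of *Cd300a-/-* mice. *H2-Aa*, *H2-Ab1* and *H2-Eb1* had ratios of -0.27, -0.27 and -0.28, or -0.88, -0.89 and -0.89 centred. *Cd74* was at -0.13 (interval -0.17 to -0.10), or -0.75 centred. The peptide editor genes lay on the other side of 0 on the TPM scale. *H2-DMb1* was at 0.81 (interval 0.60 to 1.01), or 0.19 centred. *H2-DMa* was at 0.28 (interval 0.11 to 0.45), which changed sign to -0.33 when centred and -0.28 under TMM scaling. A subset difference of *Ciita*, at -0.20 (interval -0.47 to 0.06), was not detectable at this depth on the TPM scale, and centred it was -0.81. The median of the 7 genes was -0.20, against 0.61 for the genes tested. *H2-DMb1* alone was higher past 0.5, where 56.6% of the genes tested were higher, and none was lower, where 7.97% were. After centring 5 of the 7 were lower and none higher, against 23.6% lower and 21.2% higher among the genes tested.

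In the SiglecF hi subset the levels of *Cd74* and the chain genes were close between genotypes. The ratio of *Cd300a-/-* to WT was 0.03 (interval -0.03 to 0.09) for *H2-Aa* and 0.08 (interval 0.04 to 0.11) for *Cd74*. *H2-Ab1* and *H2-Eb1* had intervals of -0.06 to 0.07 and -0.06 to 0.06, so no difference was detectable for them or for *H2-Aa*. *H2-DMa* was at -0.30 (interval -0.43 to -0.16), *H2-DMb1* at -0.17 (interval -0.32 to -0.03) and *Ciita* at -0.25 (interval -0.49 to -0.02). None of the 7 genes was past 0.5, and neither were most genes, since 3.31% of the genes tested were higher and 3.46% lower. The median of the 7 genes was -0.003 and that of the genes tested 0.04.

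In SiglecF lo neutrophils the peptide editor genes were lower in *Cd300a-/-* than in WT, and the chain genes were not. *H2-DMb1* had a ratio of -0.96 (interval -1.18 to -0.75) and *H2-DMa* of -0.78 (interval -0.95 to -0.60). In TPM their levels were 0.506 times (interval 0.433 to 0.590) and 0.575 times (interval 0.506 to 0.653) those of WT. TMM scaling gave -0.93 and -0.76, and centring -0.95 and -0.76, so both stayed lower. *H2-Aa* was at 0.03 (interval -0.04 to 0.09), *H2-Ab1* at 0.15 (interval 0.08 to 0.22), *H2-Eb1* at 0.16 (interval 0.09 to 0.23) and *Cd74* at 0.08 (interval 0.04 to 0.12). *Ciita* was at 0.35 (interval 0.05 to 0.64), or 0.54 with TMM scaling and 0.56 with a pseudocount of 0.1. Of the 7 genes 2 were lower and, but for *Ciita* under these alternatives, none higher past 0.5, against 19.9% lower and 16.4% higher among the genes tested. Their median was 0.08, and that of the genes tested -0.02. The genotype ratio in SiglecF hi minus that in SiglecF lo neutrophils was 0.79 (interval 0.53 to 1.05) for *H2-DMb1*, 0.48 (interval 0.26 to 0.70) for *H2-DMa* and -0.60 (interval -0.98 to -0.22) for *Ciita*. For *H2-Aa* and *Cd74* it was within counting error, with intervals of -0.08 to 0.09 and -0.06 to 0.05. For *H2-Ab1* and *H2-Eb1* it was -0.15 (interval -0.24 to -0.05) and -0.16 (interval -0.26 to -0.07). Such a difference past 0.5 was found for 34.1% of the genes tested.

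**Figure D2:**
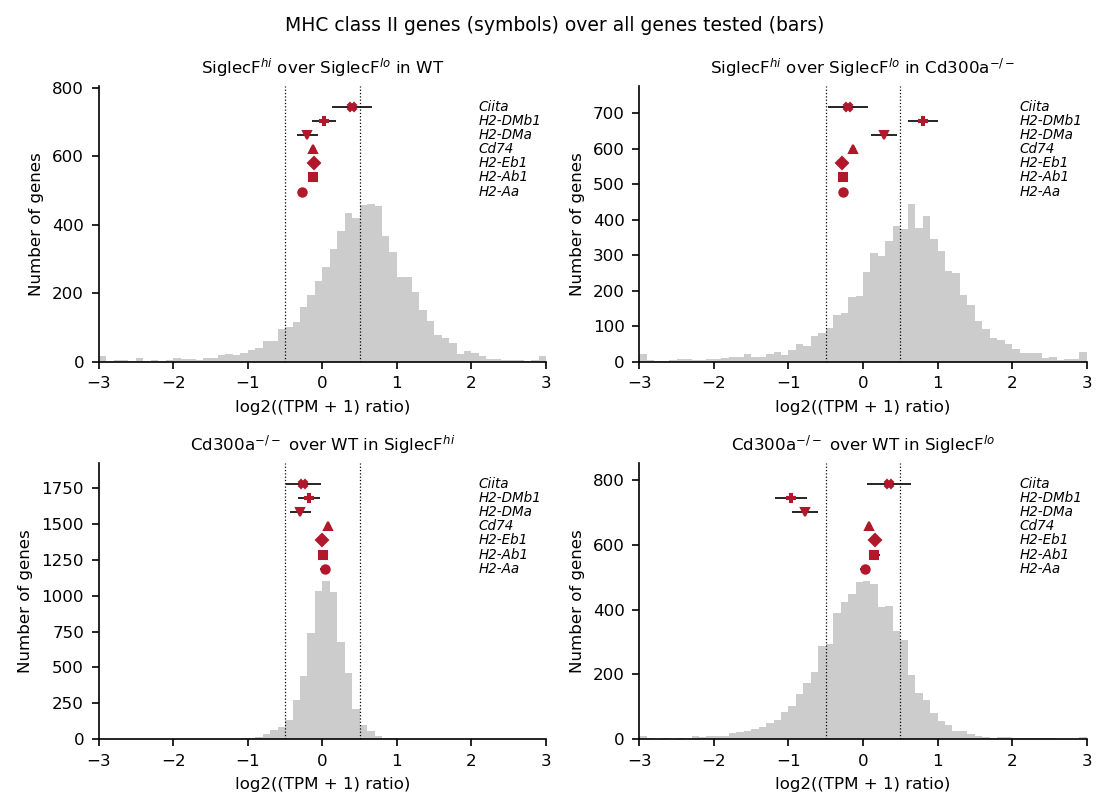
Number of genes (vertical axis) by log2((TPM + 1) ratio) (horizontal axis) for the 4 comparisons, with the 7 MHC class II genes as symbols above the bars, horizontal lines for their 95% counting intervals and dotted lines at -0.5 and 0.5. Ratios beyond the axis are in the end bars, symbol heights carry no value, and *H2-DMa* and *H2-DMb1* lie at -0.78 and -0.96 between genotypes in SiglecF lo neutrophils.

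The chain genes kept nearly the same proportions in every library. *H2-Eb1* had 0.693, 0.689, 0.686 and 0.691 times the TPM of *H2-Ab1*. *H2-Aa* had 1.24, 1.26, 1.36 and 1.25 times, and *Cd74* 2.78, 2.92, 2.78 and 2.65 times, the TPM of *H2-Ab1*. The editor genes did not keep to these proportions. *H2-Ab1* had 6.44, 7.30, 7.13 and 15.6 times the TPM of *H2-DMb1*, and *H2-Aa* had 13.1, 16.6, 13.7 and 24.4 times that of *H2-DMa*. Both ratios were highest in *Cd300a-/-* SiglecF lo neutrophils. *Cd74* had 647, 910.4, 1131 and 792 times the TPM of *Ciita*, with the highest value in WT SiglecF lo neutrophils.

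Genes of the proteins that hold CIITA at promoters had counts in every library. Of these 7 genes, 3 were higher past 0.5 in SiglecF hi than in SiglecF lo neutrophils of WT and 4 in those of *Cd300a-/-*, or 1 and 2 after centring, and none was lower. Of all genes tested 51.9% and 56.6% were higher, or 19.3% and 21.2% after centring, so these counts lay near the shares over all genes. Between genotypes 2 were higher and 3 lower in SiglecF lo, where 16.4% and 19.9% of the genes tested were, and none was past 0.5 in SiglecF hi neutrophils. The NF-Y subunit gene *Nfyc*, the most abundant of them by mean TPM, measured 45.6, 54.4, 39.0 and 32.5 TPM. *Nfya* measured 44.8, 39.1, 17.5 and 34.6 TPM, and *Nfyb* had 457, 452, 248 and 247 counts. The genes of RFX each had their lowest TPM in *Cd300a-/-* SiglecF lo neutrophils. *Rfxap* had 398, 333, 174 and 113 counts. *Rfx5* measured 5.00, 4.69, 2.71 and 1.24 TPM, and *Rfxank* 6.23, 6.37, 5.24 and 0.339 TPM, the last of these values from 7 counts. *Creb1*, at 16.8, 16.4, 10.0 and 15.0 TPM, was lowest in WT SiglecF lo neutrophils.

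Of the genes that carry the interferon-gamma signal, the receptor chains had similar TPM in the 4 libraries. *Ifngr1* measured 260.1, 292, 254 and 297 TPM and *Ifngr2* 91.1, 102, 84.2 and 97.2 TPM. Centred, their subset ratios were -0.49 and -0.41 in WT and -0.63 and -0.55 in *Cd300a-/-*, so both were then lower past 0.5 in *Cd300a-/-*. Of the 7 genes of this list, these 2 were lower and 1 was higher there after centring. Among the genes tested 23.6% were lower and 21.2% higher, so the counts lay near these shares. The receptor kinase genes *Jak1* and *Jak2* measured 192, 193, 163 and 172 TPM and 102, 136, 58.5 and 96.1 TPM. *Ifng* itself had 0, 18, 0 and 0 counts, so that in the SiglecF hi subset it was at least 6.70-fold higher in the *Cd300a-/-* library than in its WT counterpart, with 0 taken as 3 counts. *Irf1*, the gene of a transcription factor induced by interferon-gamma, measured 145, 165, 115 and 98.0 TPM, with its lowest TPM in *Cd300a-/-* SiglecF lo neutrophils.

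The remaining class II genes had few counts. *H2-Ea*, the I-E alpha chain gene, which C57BL/6 mice are known not to express as protein, had 2, 3, 0 and 0 counts, while the gene of its partner chain, *H2-Eb1*, was at 291 to 353 TPM. *H2-Eb2*, a beta chain gene beside *H2-Eb1*, had 8, 15, 0 and 9 counts. *H2-Oa* and *H2-Ob* encode H2-O, an inhibitor of H2-M best known from B cells. *H2-Oa* had 34, 13, 72 and 1 counts, and its TPM in *Cd300a-/-* SiglecF lo was 0.0126 times that in WT SiglecF lo neutrophils (interval 0.000314 to 0.0724). *H2-Ob* had 51, 79, 15 and 38 counts. *H2-DMb2*, another H2-M beta chain gene, had 103, 44, 8 and 35 counts, and in WT its TPM in SiglecF hi was 7.54 times that in SiglecF lo neutrophils (interval 3.69 to 17.9). All 5 stayed below the limit of 10 on mean TPM, and *H2-Ea-ps*, also listed, was not found by that name.

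Similar and overlapping genes make some of these values uncertain. In GENCODE M21 transcripts, 34.5% of the 36-base words of *H2-DMb1* also occur in *H2-DMb2*, so the division of reads between these genes is uncertain. For *H2-Oa*, 19.2% of the words occur in another gene. For the other 6 of the 7 genes the share was 1.24% or less, with 0% for *H2-DMa*. The library kit named in the methods does not mark strand, and *H2-DMa* overlaps *Brd2* on the opposite strand by 3094 bases, as *Ciita* does *Dexi* by 25888 bases. *Brd2* had 6314, 6555, 2056 and 3483 counts and *Dexi* 115, 91, 24 and 14 counts, and reads of both strands within the overlaps cannot be told apart. These overlaps are of whole gene spans, and their part within transcripts was not measured. Values of *H2-DMb1* carry the uncertainty of shared words, and those of *H2-DMa* and *Ciita* may carry that of the overlaps.

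The class II region of chromosome 17 from *H2-Oa* to *H2-Ea* (34311314 to 34563619) holds 15 genes of the files, 5 of them among the 7 genes. Between *H2-DMb1* and *H2-Ob* lie the genes of immunoproteasome subunits and of the peptide transporter of class I presentation. *Psmb9* measured 67.7, 55.9, 98.6 and 34.8 TPM and *Psmb8* 229, 239, 212 and 131 TPM, both of them subunit genes. In SiglecF lo neutrophils the genotype ratio was -1.48 for *Psmb9*, -0.79 for *Tap1*, -0.69 for *Psmb8* and -0.16 for *Tap2*. All but *Tap2* of these, and *H2-DMa* and *H2-DMb1* before them, were lower past 0.5 in *Cd300a-/-* SiglecF lo neutrophils, against 19.9% of the genes tested. *H2-DMb2*, which lies between *H2-DMa* and *H2-DMb1*, was higher, at 1.26 from few counts, as were *H2-Ob*, at 0.67, and *H2-Eb2*, at 0.55, also from few counts. *H2-Ab1*, *H2-Aa* and *H2-Eb1*, further along, were at 0.15, 0.03 and 0.16. *H2-Oa*, at the other end, was at -3.58 from few counts, and *Brd2* beside *H2-DMa* was at 0.61. *Psmb9* and *Tap1* overlap on opposite strands.

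**Figure D3:**
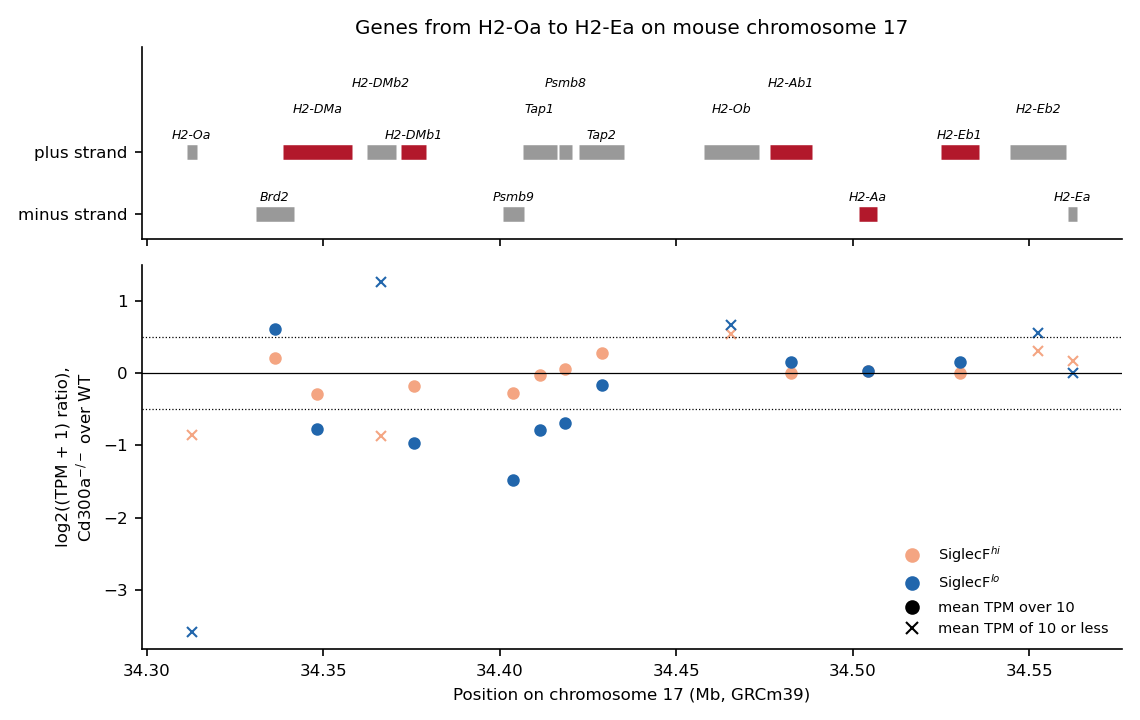
Position on chromosome 17 in Mb on GRCm39 (horizontal axis) of 15 genes by strand (upper panel, MHC class II genes of the set in red) and log2((TPM + 1) ratio), *Cd300a-/-* over WT (lower panel, vertical axis), in SiglecF hi and SiglecF lo neutrophils, with dotted lines at -0.5 and 0.5 and crosses for genes with a mean TPM of 10 or less. *H2-DMa*, *H2-DMb1*, *Psmb9*, *Tap1* and *Psmb8* lie between -0.69 and -1.48 in SiglecF lo neutrophils, and *H2-Ab1*, *H2-Aa* and *H2-Eb1* between 0.03 and 0.16.

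Promoters of class II genes carry a known arrangement of an X box, bound by RFX, and a Y box, bound by NF-Y. The sequences are shown to set the chain genes *H2-Aa* and *H2-Eb1* beside the editor gene *H2-DMb1* and beside class II genes with few counts. Of the 7 genes, 4 were in the RefSeq table of promoters (GRCm38.p6), as were 4 of the other class II genes, with 250 bases before and 50 after a start. *H2-Ab1*, *Cd74*, *Ciita* and *H2-Ea* were not in it. The letters searched were GNAAC, from the X box, then 20 to 35 bases, then ATTGG, the inverted CCAAT of the Y box, with a spacing chosen after the sequences were seen. Of 32851 promoter windows 1.33% held this arrangement on the strand of the gene and 2.67% on either strand, and 37.4% held ATTGG alone on either strand. The windows of *H2-Aa*, *H2-Eb1*, *H2-DMb1*, *H2-Eb2*, *H2-Oa* and *H2-Ob* held it. Capitals mark the motifs, each stretch lies before the start of its gene, and *H2-DMb2*, which held ATTGG alone, is given for comparison with *H2-DMb1*.
H2-Aa: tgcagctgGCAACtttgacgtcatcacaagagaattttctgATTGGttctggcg
H2-Eb1: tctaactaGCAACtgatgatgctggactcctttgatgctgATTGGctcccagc
H2-DMb1: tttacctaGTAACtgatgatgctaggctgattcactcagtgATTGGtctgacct
H2-DMb2: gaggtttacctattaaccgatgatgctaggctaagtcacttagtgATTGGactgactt
H2-Eb2: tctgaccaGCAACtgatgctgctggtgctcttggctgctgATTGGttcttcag
H2-Oa: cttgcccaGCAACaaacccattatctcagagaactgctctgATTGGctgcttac
H2-Ob: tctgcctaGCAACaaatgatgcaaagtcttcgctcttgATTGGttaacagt

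On GRCm38.p6 these stretches are chr17:34287859-34287912 on the minus strand for *H2-Aa*, and on the plus strand chr17:34305768-34305820 for *H2-Eb1*, chr17:34153089-34153142 for *H2-DMb1*, chr17:34145114-34145171 for *H2-DMb2*, chr17:34325535-34325587 for *H2-Eb2*, chr17:34092295-34092348 for *H2-Oa* and chr17:34238810-34238860 for *H2-Ob*. The bases between the motifs numbered 28 in *H2-Aa*, *H2-DMb1* and *H2-Oa*, 27 in *H2-Eb1* and *H2-Eb2*, and 25 in *H2-Ob*. *H2-DMa* had 2 windows, and neither held the arrangement. It was thus present before *H2-Aa*, at 520.5 TPM or more, and before *H2-Eb2*, at 0.563 TPM or less. A match describes these letters and is not a measured site. Which starts are used in these cells was not examined. The lack of a match in the *H2-DMa* windows thus does not show that this gene lacks the arrangement.

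Genes that prepare antigen for class II molecules had subset ratios unlike those of the chain genes. Of these 9 genes, 8 were higher past 0.5 in SiglecF hi neutrophils in WT and 8 in *Cd300a-/-*, or 4 and 7 after centring, and none was lower. The shares higher over all genes tested were 51.9% and 56.6%, or 19.3% and 21.2% after centring. In sum they had 2.39 times the TPM of SiglecF lo in SiglecF hi neutrophils in WT and 2.56 times in *Cd300a-/-*, and the macrophage markers 2.43 and 2.31 times, whose part was not tested. The medians of the 9 genes were 0.97 and 1.26, or 0.45 and 0.65 centred. *Ctsd*, the gene of cathepsin D and the most abundant, measured 6716, 5407, 2532 and 2318 TPM, and *Ctsb*, of cathepsin B, 3618, 2988, 1088 and 941 TPM. *Ifi30*, the gene of a thiol reductase of endosomes, measured 674, 557, 419 and 229.7 TPM. *Sppl2a*, whose protease clears the last fragment of the invariant chain, measured 65.9, 66.4, 55.2 and 57.0 TPM. Between genotypes 3 of the 9 were lower past 0.5 in SiglecF lo neutrophils, or 2 after centring, against 19.9% of the genes tested, and none was past 0.5 in SiglecF hi neutrophils.

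Among genes that set how long class II molecules stay on the surface, *Marchf1*, a ubiquitin ligase for them, measured 17.9, 21.9, 13.1 and 7.19 TPM and its relative *Marchf8* 17.4, 18.1, 7.59 and 5.26 TPM. *Cd83*, which opposes MARCH1, measured 171, 220.0, 115 and 145 TPM. Of these 3 genes, 2 were higher past 0.5 in SiglecF hi neutrophils in WT and 3 in *Cd300a-/-*, or 1 and 2 after centring, beside the same shares over all genes. *Marchf1* alone was lower past 0.5 between genotypes in SiglecF lo neutrophils, at -0.79. CD74 on the surface also serves as a receptor for MIF. *Mif* measured 569, 484, 365 and 250.4 TPM and *Ddt*, its homologue, 50.3, 59.6, 28.7 and 19.6 TPM, and these 2 of the 5 genes of this list were lower past 0.5 between genotypes in SiglecF lo neutrophils, at -0.54 and -0.53, though *Ddt* was within the limit with TMM scaling, at -0.48. Over all genes tested 19.9% were lower. Of the receptors that act with CD74, *Cxcr4* measured 1641, 1801, 1521 and 1206 TPM, *Cd44* 447, 559, 515 and 602 TPM and *Cxcr2* 376, 372, 876 and 954 TPM. *Cxcr2*, also among the neutrophil markers, was lower in SiglecF hi neutrophils, at -1.22 in WT and -1.36 in *Cd300a-/-*. Between subsets 2 of the 5 were higher in WT and 3 in *Cd300a-/-*, where 51.9% and 56.6% of the genes tested were, or 0 and 1 after centring, when 2 were lower in WT and 2 in *Cd300a-/-*, against 20.9% and 23.6% of the genes tested.

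T cells need costimulatory signals beside class II molecules. The list of these genes also holds the inhibitory ligand genes *Cd274* and *Pdcd1lg2*, and all of its genes had counts in every library. Of these 6 genes, 3 were higher and 1 lower past 0.5 in SiglecF hi neutrophils of WT, or 3 and 2 after centring. In *Cd300a-/-* 3 were higher and 0 lower, or 1 and 1 after centring. Over all genes tested 51.9% were higher and 7.47% lower in WT, or 19.3% and 20.9% after centring, and 56.6% and 7.97% in *Cd300a-/-*, or 21.2% and 23.6% after centring. Between genotypes 2 were higher in SiglecF hi neutrophils, where 3.31% of the genes tested were, and 3 were higher and 1 lower in SiglecF lo neutrophils, where 16.4% and 19.9% were. *Cd80* measured 107, 145, 50.1 and 54.3 TPM and *Cd86* 48.2, 72.2, 48.1 and 73.7 TPM, so that in TPM *Cd80* divided the libraries by subset and *Cd86* by genotype, but after centring *Cd86* was also lower in SiglecF hi neutrophils, at -0.52 in WT and -0.64 in *Cd300a-/-*. *Icosl* measured 49.3, 60.1, 19.9 and 35.7 TPM. *Cd40* measured 7.10, 9.60, 1.72 and 8.67 TPM and *Pdcd1lg2*, the gene of the inhibitory ligand PD-L2, 5.06, 10.6, 9.13 and 5.58 TPM. *Pdcd1lg2* was the 1 gene lower before centring between subsets of WT, at -0.74, and between genotypes in SiglecF lo neutrophils, at -0.62. It was also 1 of the 2 higher between genotypes in SiglecF hi neutrophils, at 0.94.

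Genes of MHC class I presentation were set beside those of class II. Of these 7 genes, 1 was higher past 0.5 in SiglecF hi neutrophils in WT and 5 in *Cd300a-/-*, but none was after centring, when 3 were lower in WT and 1 in *Cd300a-/-*. Among all genes tested 51.9% and 56.6% were higher, and after centring 20.9% and 23.6% lower. Between genotypes 3 of the 7 were lower in SiglecF lo neutrophils, against 19.9% of the genes tested. *B2m*, the light chain gene, measured 7629, 7497, 7295 and 4603 TPM, and *Tap1*, a peptide transporter gene, 87.4, 86.1, 99.9 and 57.3 TPM. Both had their lowest TPM in *Cd300a-/-* SiglecF lo neutrophils, as *H2-DMa* and *H2-DMb1* had. After centring, however, *B2m* and *Tap1* were nearly level between the subsets of *Cd300a-/-*, at 0.09 and -0.03. The heavy chain gene *H2-K1* measured 1370.4, 1439.6, 1061 and 880.4 TPM, and *Tapbp*, of the loading complex, 244, 325, 163 and 200.3 TPM. *H2-D1*, also a heavy chain gene, measured 2307, 2347, 2926 and 2969.8 TPM, and for it, as for the class II chain genes, both SiglecF lo libraries lay above both SiglecF hi libraries.

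Markers of other cells that a sort could hold were read beside the class II values. The class II sum was 0.288, 0.336, 0.776 and 0.881 times the macrophage sum, so these sums did not keep the same ratio across the libraries. Of the macrophage markers, *Mertk* and *C1qc* had the largest subset ratios in WT, at 2.19 and 1.65, and *Timd4* and *Lyve1* the smallest, at -0.61 and -0.53. The 4 monocyte markers, led by *Chil3*, summed to 1009, 894, 1604 and 1446 TPM, and both SiglecF lo libraries lay above both SiglecF hi libraries, as for the chain genes. Among them *Ly6c2* measured 270.3, 226, 756 and 706 TPM and *Ms4a4c* 108, 92.3, 158 and 66.0 TPM. The 5 fibroblast markers, led by *Dcn*, summed to 1546, 1109, 718 and 665 TPM. None of the monocyte or fibroblast markers was at 0 counts, and the part of these cells was not tested.

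Dendritic cell and B cell markers were low, and several were at 0. The 9 dendritic cell markers summed to 202, 240.4, 109 and 109 TPM, but without *Itgax*, which macrophages also express, to 30.9, 27.3, 31.2 and 21.7 TPM. *Flt3* had 47, 107, 0 and 7 counts, *Xcr1* 4, 12, 0 and 8 counts, *Clec9a* 34, 38, 24 and 0 counts and *Cd209a* 15, 10, 80 and 0 counts. The other markers of this list had counts in every library. Among them *Clec10a* had 302, 203, 133 and 162 counts, with a mean of 11.2 TPM, and *Batf3* 79, 49, 27 and 29 counts. The 8 B cell markers, led by *Cd79b*, summed to 11.3, 18.3, 8.10 and 8.02 TPM. *Cd79b* had 77, 80, 17 and 18 counts and *Ebf1* 139, 182, 89 and 44 counts. *Ighm* was at 0 counts in all 4 libraries. *Ms4a1* had 23, 15, 0 and 0 counts, *Cd79a* 20, 67, 0 and 17 counts and *Cr2* 0, 4, 0 and 0 counts.

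Of the other lists, the 6 T cell markers, led by *Cd3d*, summed to 5.37, 8.62, 5.57 and 11.7 TPM, with *Cd3e* at 0 counts in every library but WT SiglecF lo, where *Cd4* and *Cd8a* were at 0. The 4 eosinophil markers, led by *Ccr3*, summed to 5.53, 5.81, 2.14 and 1.98 TPM, and *Epx*, the gene of eosinophil peroxidase, was at 0 counts in all 4 libraries, and *Prg2* in all but WT SiglecF hi. The 5 endothelial markers, led by *Pecam1*, summed to 67.3, 85.2, 112 and 39.9 TPM, and the 5 cardiomyocyte markers, led by *Myl2*, to 41.5, 62.6, 41.0 and 25.0 TPM, with none at 0 counts. In TPM the macrophage, eosinophil, endothelial and cardiomyocyte sums were each lowest in *Cd300a-/-* SiglecF lo neutrophils, where *H2-DMa* and *H2-DMb1* also had their lowest TPM, and so was the dendritic cell sum without *Itgax*. The B cell and fibroblast sums were lowest there only with their leading genes. Past 0.5 between genotypes in SiglecF lo neutrophils, where 16.4% of the genes tested were higher and 19.9% lower, 5 of the 5 endothelial and 3 of the 5 cardiomyocyte markers were lower and none higher. Of the 14 macrophage markers 2 were higher, *Cd163* at 1.28 and *Mrc1* at 0.66, and 2 lower, *Fcgr1* at -1.22 and *Cx3cr1* at -0.75, with a median of 0.01, so that list did not move one way. In the T cell list 4 were higher, *Cd8a* at 1.05, *Cd3d* at 0.98, *Cd4* at 0.84 and *Cd3g* at 0.73, and 1 lower, *Cd3e* at -0.95. In the B cell list *Cd79a* was higher, at 1.61 from 0 and 17 counts, and *Ebf1* lower, at -0.76, though 2 were higher under TMM scaling. In the eosinophil list none was higher or lower, but 1 was lower under TMM scaling. *Clec9a* at -1.27 and *Cd209a* at -3.52, both at 0 counts in *Cd300a-/-*, were lower in the dendritic cell list, with none higher but for 2 under TMM scaling. *Ms4a4c* at -1.24 was lower in the monocyte list, with none higher. *Pdgfra* at 0.55 was higher in the fibroblast list, with none lower, and 4 of the 8 neutrophil markers were higher, with none lower. The part of these cells in the ratios of *H2-DMa* and *H2-DMb1* was not tested.

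**Figure D4:**
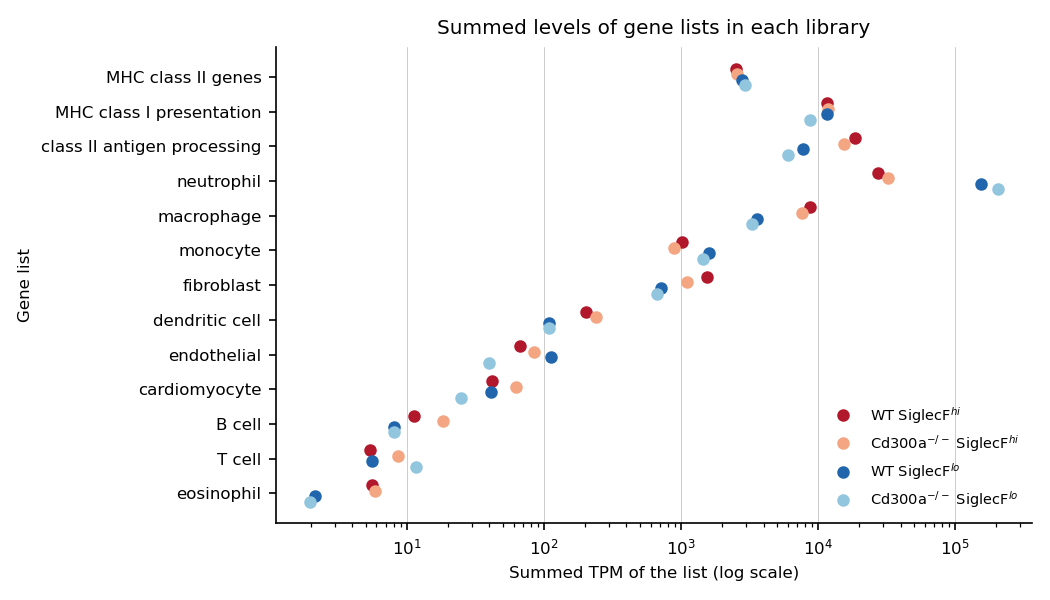
Summed TPM on a log scale (horizontal axis) of the MHC class II genes, of antigen presentation lists and of cell type marker lists (vertical axis), with 1 point per library. The MHC class II genes lie between 2510.0 and 2918 TPM, the macrophage markers between 3314 and 8729 TPM and the B cell markers between 8.02 and 18.3 TPM.

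The 10 genes most like the mean profile of *H2-Aa*, *H2-Ab1*, *H2-Eb1* and *Cd74* over the 4 libraries, by Euclidean distance of centred log2(TPM + 1), were *Actr3*, *Olfml2b*, *Fcgr3*, *Arf5*, *Ap1m1*, *Hgsnat*, *Slc11a1*, *Cap1*, *Akna* and *Rbm4*. *Actr3*, which encodes a subunit of an actin nucleator, was nearest, at a distance of 0.02, and measured 758, 765, 843 and 919.9 TPM. *Fcgr3*, an Fc receptor gene, at 0.04, measured 847, 843, 947 and 989 TPM. *H2-Ab1* itself lay 0.04 from the mean profile, with 2 genes nearer, and *Cd74* 0.08, with 15 nearer. Both are part of that mean, which draws it towards them. *Ciita*, which is not part of the mean, lay 0.40 from it, with 704 genes nearer. *H2-DMa* and *H2-DMb1*, also not part of it, lay 0.71 and 0.98 from it, with 2039 and 3481 genes nearer. These distances restate the levels given above, in which the editor genes did not share the profile of the chain genes.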

How the data were processed

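Per gene, the authors deposited an unnormalized count. Reads or read pairs as its unit are not given in the sources used here. The authors deposited TPM and RPKM, both scaled for gene length and depth, and a scaled signal named CPM, which was not used. Per the methods, libraries were made from poly(A) RNA with an NEBNext Ultra II kit, read from both ends and quantified in CLC Genomics Workbench.

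Ratios of TPM + 1 were computed for genes with a mean TPM over 10 and counted past 0.5 on the log2 scale. Intervals of counts and of log2 ratios used the Poisson error of counts, and those of folds were exact binomial intervals. PCR copies are not independent molecules, so both cover counting error only. The calculation was tested on simulated data. Alternatives were TMM scaling (edgeR 4.0.16, R 4.3.3), median centring, a pseudocount of 0.1, other TPM limits, a threshold of 1, RPKM and lists without their most abundant gene. Python 3.11.15, pandas 2.3.3 and scipy 1.17.1 were used.

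The 7 genes and the lists were chosen with earlier results of these data known. All class II, CIITA complex and interferon-gamma genes were to be named, and of each other list the most abundant gene, the 2 largest and 2 smallest subset ratios in WT and markers at 0 counts, of which a part is given, and the 10 genes of nearest profile. Some listed genes are not reported here. *Brd2*, *Dexi*, *Psmb8*, *Psmb9* and *Tap2* (for their position), *Cd163*, *Mrc1*, *Fcgr1*, *Cx3cr1*, *Clec10a* and *Batf3*, the word length and the motif spacing were chosen after the values were seen.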

Additional observations from a re-analysis of the deposited data

Results flagged for a closer look

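Some ratios pointed in opposite directions in the groups compared. With 1 library per group, none of these differences was tested. *H2-DMa* had a subset ratio, SiglecF hi to SiglecF lo, of -0.20 in WT but 0.28 in *Cd300a-/-* mice, a difference of -0.48, and the second turned to -0.33 when centred. *Ciita* had a genotype ratio of -0.25 for SiglecF hi but 0.35 for SiglecF lo neutrophils, a difference of -0.60. For both, the counting intervals left out 0.

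Of the other named genes, taken where both ratios were also past 0.5, the genotype ratio for SiglecF hi minus that for SiglecF lo neutrophils was -2.14 for *H2-DMb2* (-0.88 and 1.26), 1.57 for *Pdcd1lg2* (0.94 and -0.62), -1.26 for *Cd3g* (-0.53 and 0.73), 1.61 for *Myh6* (0.87 and -0.73) and 3.24 for *Tnni3* (0.93 and -2.31). The subset ratio for WT minus that for *Cd300a-/-* was -2.72 for *H2-Oa* (-1.61 and 1.12), -1.57 for *Pdcd1lg2* (-0.74 and 0.82), -3.31 for *Cd209a* (-2.42 and 0.89), -2.20 for *Pecam1* (-1.27 and 0.92) and -1.74 for *Cdh5* (-0.55 and 1.19). After centring the *Cd300a-/-* subset ratios of *Pdcd1lg2*, *Cd209a* and *Pecam1* were within the limit, at 0.21, 0.28 and 0.31, and with TMM scaling so were those of *Pdcd1lg2* and *Pecam1*, at 0.31 and 0.38, and the SiglecF hi genotype ratio of *Cd3g*, at -0.24. *Psmb9*, named for its position, also met this rule, with subset ratios of -0.53 in WT and 0.67 in *Cd300a-/-*. The second lay close to the median of 0.61 over the genes tested there. Some ratios of these named genes rest on few counts. In *Cd300a-/-* SiglecF lo neutrophils *H2-Oa* had 1 count, *Cd209a* 0, *Myh6* 6 and *Tnni3* 6. *H2-DMb2* had 8 counts in WT SiglecF lo, and in SiglecF hi neutrophils *Cd3g* had 4 in WT, with 0 in *Cd300a-/-*.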

How the results depend on the processing

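No paired analysis was possible because each group has 1 library, and no library could be left out. The median of the 7 genes between genotypes stayed within the counting interval of its middle gene under TMM scaling, centring and a pseudocount of 0.1. Between subsets it moved from -0.13 to -0.67 (TMM) and -0.66 (centred) in WT, and from -0.20 to -0.79 and -0.81 in *Cd300a-/-*. Both scalings remove the shift of the median of all genes, and after centring 1259 genes were higher and 1363 lower in WT, against 3386 and 487 before, and 1382 and 1540 in *Cd300a-/-*, against 3692 and 520. Of the 7 genes, 6 in place of 0 were then past the threshold in WT and 5 in place of 1 in *Cd300a-/-*, with either scaling. In WT the number was 1 with a pseudocount of 0.1. Between genotypes in SiglecF lo it went from 2 to 3 with a pseudocount of 0.1 and to 3 with TMM scaling, with *Ciita* higher in both. A threshold of 1 left 0 of 1 between subsets in *Cd300a-/-* and 0 of 2 between genotypes in SiglecF lo.

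Over all genes tested, the numbers past the threshold were 3873, 4212, 442 and 2367 for subsets in WT, subsets in *Cd300a-/-*, genotypes in SiglecF hi and genotypes in SiglecF lo. In this order they were 7317, 7619, 1716 and 5178 with a mean TPM over 1 and 8813, 8996, 2674 and 6476 with no filter, which test more genes, and 1520, 1975, 46 and 611 with a threshold of 1. A TPM over 10 in both libraries, which tests fewer, gave 1516 for genotypes in SiglecF lo.

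RPKM in place of TPM moved the ratio of the summed class II genes, in this order, from 0.898 to 0.759, from 0.881 to 0.764, from 1.02 to 0.992 and from 1.04 to 0.985. By definition TPM and RPKM differ only in the scaling of each whole library. This shift is thus shared by all genes and not particular to class II genes. Without *Itgax* the subset ratio of the dendritic cell markers moved from 1.86 to 0.990 in WT and from 2.21 to 1.26 in *Cd300a-/-*. Without *Cd79b* that of the B cell markers moved from 1.40 to 0.900 in WT. Without *Ccr3* the eosinophil ratios moved from 2.59 to 0.953, from 2.94 to 1.62, from 1.05 to 0.515 and from 0.924 to 0.302. Leaving the most abundant gene out of the lists that are not cell type markers was chosen after seeing the data and moved 4 ratios by over 1.5 times and 28 by less. Of 28 ratios of single class II genes, 5 changed sign after centring, 3 with TMM scaling and 0 with a pseudocount of 0.1.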
